A study of Mus musculus with 20 samples.

Results

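Bile acids are made from cholesterol in hepatocytes, and they both dispose of cholesterol and solubilize dietary lipid in the gut. The classic pathway opens with a hydroxylation of the sterol ring by Cyp7a1, the rate-limiting enzyme, whereas the alternative pathway opens with oxidation of the side chain by Cyp27a1 and goes on through Cyp7b1. Enzymes shared by both routes reshape the ring, and the product is then activated and joined to an amino acid, which in mice is mostly taurine. Bile acids returning to the liver lower their own synthesis through the receptor FXR and the corepressor SHP, encoded by Nr0b2.

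The genes described are Cyp7a1, Cyp8b1, Cyp27a1, Cyp7b1, Hsd3b7, Akr1d1, Slc27a5, Baat, Cyp2c70 and Nr0b2. They were found by symbol in both RNA-seq tables and joined by Ensembl identifier. All 10 were listed, among 56884 genes in the male table and 18149 in the female table. The samples were livers of mice aged 11 to 14 weeks, 3 WT and 3 Midn-T of each sex. WT mice had the genotype Midn XTR, an allele with an invertible gene-trap cassette in the direction that leaves Midn transcription intact. Midn-T mice had the genotype Midn TR, in which Albumin-Cre had turned the cassette to stop the transcript of Midn, an adaptor of the proteasome. Albumin-Cre is used to target hepatocytes, and which other cells of these livers kept the untrapped allele was not measured here. Whether the WT mice carried the Cre transgene is not given in the sources used here.

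The value used for each gene was the authors' mean normalized count over the 6 samples of 1 sex, with WT and Midn-T pooled. It has no SD, since no value for a single mouse was used, and the depth of each library is unknown. The authors' fold changes and p-values of Midn-T against WT were left aside. Nothing here therefore compares the genotypes, and no difference between the sexes was tested. Each ratio between the sexes given below is one of pooled means, and ratios in WT mice alone were not computed. The authors report that the responses to Midn loss differed largely between males and females. The part of Midn loss in the ratios between the sexes, those of Cyp7b1, Cyp8b1 and Cyp7a1 included, was not tested. The means summed to 3.028e+07 in males and 3.076e+07 in females, of which the 10 genes held 0.305% and 0.269%. The Y-linked genes Ddx3y, Eif2s3y, Kdm5d and Uty had a summed mean of 6937 in the male table, and none of them was listed in the female table, whose lowest mean was 6.61. Xist had a mean of 14.0 in males and 72478 in females, so the tables match their labelled sex. Midn itself had pooled means of 1672 in males and 1357 in females, which do not check the genotype labels.

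Most of these genes were among the most abundant transcripts of the liver. Levels are compared between genes only after division by the length of all annotated exons merged, as mean normalized count per kb. By this measure 7 of the 10 were in the top 5% of the 18045 genes ranked in the male table, and 7 of 10 were in the female table. Slc27a5 was the highest of the 10 in both sexes and Hsd3b7 the lowest in both, a place that for Hsd3b7 is uncertain because another gene shares its exons. The order of neighbours cannot be set against the spread between mice. In males, Cyp8b1, Baat and Cyp7a1 had 3662, 3287 and 3095 mean normalized counts per kb, whereas in females Baat had 3235 and Akr1d1, Cyp8b1 and Cyp7a1 had 2044, 1832 and 1703.

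**Figure D1:**
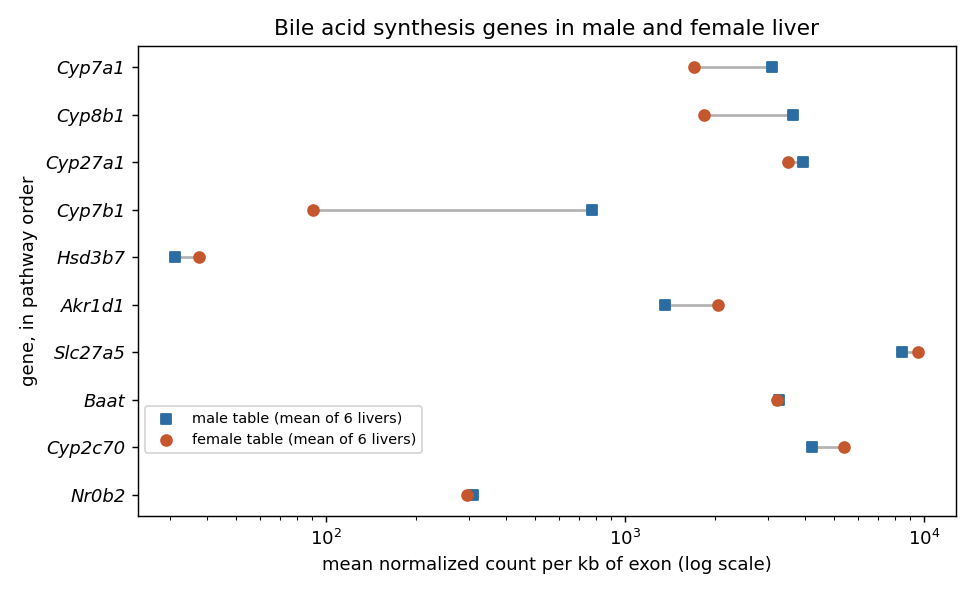
Level of each bile acid synthesis gene as mean normalized count per kb of exon, on a log axis, with squares for the male table and circles for the female table, each the authors' mean over 6 livers without an error. The points lie close together for most genes, and the widest gap is that of Cyp7b1, from 773 in males to 90.6 in females.

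To place the sexes on a common scale, the log2 ratio of the female to the male mean was centred on its median over the 16822 genes with an average mean of at least 10. The authors normalized the tables separately, and this median was 0.0568 before centring. The hydroxylases Cyp7b1, Cyp8b1 and Cyp7a1 were past 1.5-fold, and each was higher in males. These 3 of 10 genes stand beside a background of 13.2% of all genes past 1.5-fold in either direction. In males, 4.71% of all genes were higher by this margin, and in females 8.51% were, against 0 of the 10. All genes here means those listed in both sexes, so genes with no female entry, such as the Y-linked ones, are left out. The male list also holds genes at a mean of 0, so the directions were not filtered alike and their shares are not strictly comparable. The median log2 ratio of the 10 genes was -0.10, with 6 below 0 and 4 above, and that of all genes was 0 by construction. At 2-fold the count was 2 of 10, Cyp7b1 and Cyp8b1, beside 4.49% of all genes.

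Promoter sequence is shown for Cyp8b1 and Cyp7b1, the genes past 2-fold, since their start sites are where the letters of a regulatory site would be looked for. Each line gives the 250 bases before the start of the canonical transcript in GRCm39 on the minus strand, read 5′ to 3′. Capitals mark AGGTCA, the half-site of nuclear receptors, or TATAAA, the TATA box, and TTCNNNGAA, the STAT consensus, was searched as well, each on both strands.
Cyp8b1 (chr9:121745372-121745621): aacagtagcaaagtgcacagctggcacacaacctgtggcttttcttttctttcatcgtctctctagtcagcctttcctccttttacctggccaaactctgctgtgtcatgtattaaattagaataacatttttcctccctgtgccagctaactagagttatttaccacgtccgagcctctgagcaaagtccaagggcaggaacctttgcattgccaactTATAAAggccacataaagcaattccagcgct
Cyp7b1 (chr3:18297741-18297990): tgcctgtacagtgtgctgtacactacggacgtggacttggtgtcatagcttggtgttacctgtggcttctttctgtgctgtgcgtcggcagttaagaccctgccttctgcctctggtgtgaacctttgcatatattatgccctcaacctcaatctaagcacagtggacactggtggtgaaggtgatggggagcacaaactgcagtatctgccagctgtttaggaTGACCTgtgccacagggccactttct

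In these windows Cyp8b1 held TATAAA from 31 to 26 bases before the start. Cyp7b1 held no TATAAA, and AGGTCA was found on its reverse strand, written TGACCT above, from 26 to 21 bases before the start. Over the 21769 protein-coding genes searched, TATAAA was in 11.9% of windows, AGGTCA in 13.1% and TTCNNNGAA in 7.7%. Of the 9 bile acid genes searched, 3, 3 and 1 held them, and neither window printed here held TTCNNNGAA. A match of letters is a description of the window and not of a bound site.

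Cyp7b1, the hydroxylase of oxysterols in the alternative pathway, stood furthest apart between the sexes. Its mean normalized count was 9105 in males and 1068 in females, 8.87-fold higher in males on the common scale. Its log2 ratio of -3.15 ranked 30 from the lowest among the 16822 genes, all of them listed in both sexes. In length-corrected level it was placed above 94.3% of ranked genes in males and above 62.7% in females. Cyp7b1 (ENSMUSG00000039519) spans 18117411 to 18297740 on chromosome 3 of GRCm39, minus strand, and its canonical transcript has 6 exons. Its merged exons are the longest of the 10 at 11.8 kb, so its large count corresponds to a modest level per kb.

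Cyp8b1, the hydroxylase that directs synthesis towards cholic acid, had mean normalized counts of 7141 in males and 3573 in females. It was 2.08-fold higher in males, with a log2 ratio of -1.06 that lay below all but 1.52% of genes. Cyp8b1 (ENSMUSG00000050445) is a gene of 1 exon on chromosome 9, from 121743422 to 121745371 on the minus strand. Cyp7a1, which opens the classic pathway, had mean normalized counts of 12920.0 and 7110.4. It was 1.89-fold higher in males, with a log2 ratio of -0.92, and is thus the only gene of the 3 that did not reach 2-fold. Cyp7a1 (ENSMUSG00000028240) lies on chromosome 4 from 6265612 to 6275633, minus strand, with 6 exons.

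**Figure D2:**
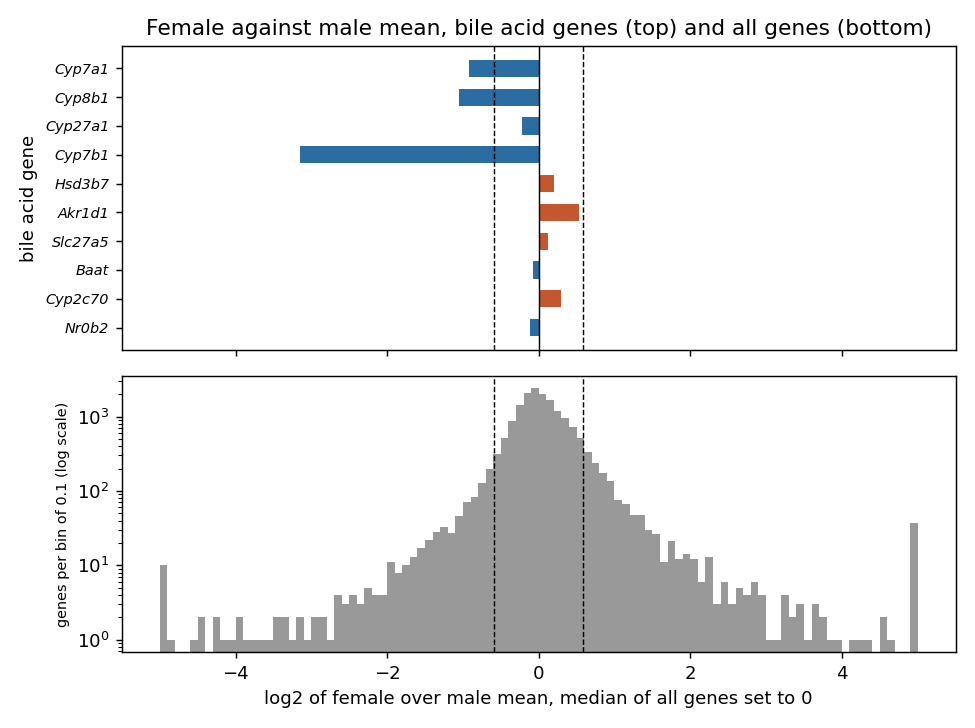
Log2 of the female over the male mean for the 10 bile acid genes (top, bars) and for 16822 genes (bottom, histogram with a log count axis in bins of 0.1, values beyond 5 in size drawn in the end bins), with the median of all genes at 0 and dashed lines at 1.5-fold. Cyp7b1 at -3.15, Cyp8b1 at -1.06 and Cyp7a1 at -0.92 lie past the left line, and Akr1d1 at 0.53 lies just inside the right one.

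Cyp27a1, the mitochondrial enzyme that oxidizes the side chain, was within 1.5-fold between the sexes, and its log2 ratio of -0.22 lay above those of 20.7% of genes. It had mean normalized counts of 13115 in males and 11673 in females, a ratio of 1.17-fold towards males. Cyp27a1 (ENSMUSG00000026170) spans 74752314 to 74777056 on the plus strand of chromosome 1 with 9 exons. Cyp7b1 per kb was 0.196 of Cyp27a1 in males and 0.0258 in females, a comparison within each table that needs no common scale.

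Akr1d1, the reductase that saturates the ring and sets its bent shape, was the gene of the 10 with the largest ratio towards females. Its mean normalized counts were 6274 in males and 9395 in females, 1.44-fold higher in females and short of 1.5-fold. Per kb, Akr1d1 was 0.441 of Cyp7a1 in males and 1.20 times Cyp7a1 in females. With the length of the longest transcript, chosen for these ratios after the values were seen, they were 0.692 and 1.88. Akr1d1 (ENSMUSG00000038641) lies on the plus strand of chromosome 6 from 37506822 to 37545751, with 9 exons.

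Hsd3b7, the dehydrogenase that acts just after the ring hydroxylation in both pathways, was the lowest of the 10 over its merged exons. Its mean normalized counts were 102 in males and 122 in females, or 31.3 and 37.4 per kb, which placed it above 40.4% and 42.1% of ranked genes. Hsd3b7 (ENSMUSG00000042289) spans 127399597 to 127402989 on the plus strand of chromosome 7. The annotated protein-coding gene Gm49388 (ENSMUSG00000108815) runs over it on the same strand, from 127384780 to 127402974, and also covers exons of the upstream gene Setd1a. Of the 1879 bases in the canonical transcript of Hsd3b7, Gm49388 shares 1717, or 91.4%. All 5240 exonic bases of Gm49388 belong to Hsd3b7 or Setd1a as well, leaving 0 of its own, and it was listed at a mean of 0 in the male table and was not listed in the female table. Counters that give a read to 1 gene usually leave out reads in exons of several genes, so the level of Hsd3b7 is uncertain. Whether the overlap lowered its count was not tested. Divided by the 1546 exonic bases that no other gene shares, a length chosen after the values were seen, the level was 66.0 per kb in males and 79.0 in females. Only 162 bases of the canonical transcript are not shared with Gm49388. The whole count divided by this length, also chosen afterwards, gave 630 per kb in males and 754 in females. Reads over these bases alone were not counted, and the count can hold reads from the other exonic bases. Values of that size would lie above Nr0b2 in both sexes and above Cyp7b1 in females. Hsd3b7 was the lowest over its merged exons, over its longest transcript and over the 1546 unshared bases, and only the 162 bases moved it. Since reads in shared exons may be missing from its count, its place as the lowest remains uncertain.

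**Figure D3:**
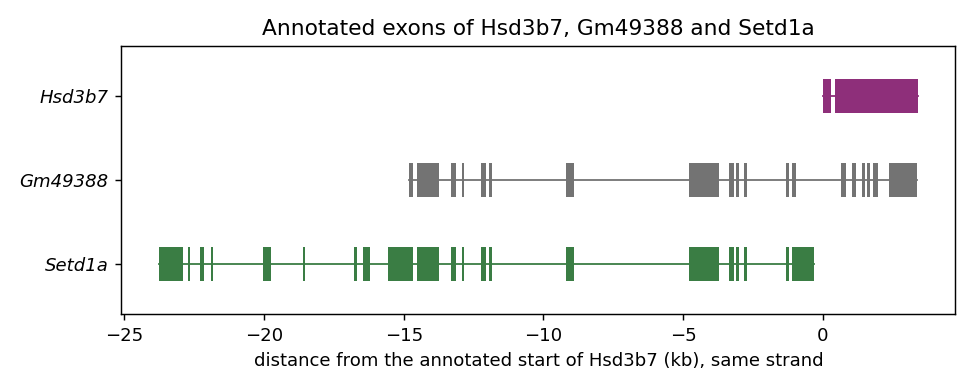
Annotated exons (boxes) of Hsd3b7, Gm49388 and Setd1a, all on the same strand, by distance in kb from the start of Hsd3b7, with all transcripts of a gene merged. The exons of Gm49388 all lie within those of Setd1a on the left or Hsd3b7 on the right.

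No other of the 10 genes had exonic bases in common with a gene on its strand. Of the 31-base words in their transcripts, between 0% and 7.26% also occurred in transcripts of other genes, against 44.5% for Hsd3b7. The 7.26% was that of Cyp7b1. Cyp2c70 belongs to a family of similar genes, but only 1 of its 2854 words was found elsewhere.

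Slc27a5 and Baat, which finish the bile acid, each had a male and a female mean within 1.5-fold of each other. Slc27a5, the ligase that activates bile acids with coenzyme A, had mean normalized counts of 24152 in males and 27293 in females, 1.09-fold higher in females. Per kb it made up 29.1% of the summed level of the 10 genes in males and 34.6% in females. Baat, the transferase that joins the activated bile acid to taurine or glycine, had 7180 in males and 7065 in females, 1.06-fold higher in males. Slc27a5 (ENSMUSG00000030382) lies on chromosome 7 from 12722273 to 12732137, and Baat (ENSMUSG00000039653) on chromosome 4 from 49489289 to 49506563, both on the minus strand.

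Cyp2c70, the hydroxylase that gives mice their muricholic acids, was the second most abundant of the 10 per kb in both sexes. Its mean normalized counts were 11623 in males and 14840 in females, 1.23-fold higher in females. Cyp8b1, which leads to cholic acid, can be set against it within each table. Cyp8b1 per kb was 0.866 of Cyp2c70 in males and 0.339 in females. With the longest transcript as the length, chosen after the values were seen, it was 0.541 and 0.212. The ratio was 2.55-fold higher in males, a quotient in which gene length and the scale between the tables cancel. Ratios between 2 of the 10 genes were not planned. The other pairs computed, per kb in males and females, included Cyp8b1 over Cyp7a1 at 1.18 and 1.08 and Slc27a5 over Baat at 2.58 and 2.96. Cyp7b1 over Cyp7a1 was 0.250 and 0.0532, and Cyp2c70 over Cyp7a1 was 1.37 and 3.17. Cyp2c70 (ENSMUSG00000060613) lies on chromosome 19 from 40141797 to 40175777, minus strand, with 9 exons.

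Nr0b2, the corepressor SHP that lowers Cyp7a1 and Cyp8b1 transcription when bile acids are plentiful, had mean normalized counts of 667 in males and 638 in females. The ratio was 1.09-fold towards males, with a log2 ratio of -0.12 against -0.92 for Cyp7a1 and -1.06 for Cyp8b1. Nr0b2 (ENSMUSG00000037583) lies on the plus strand of chromosome 4 from 133280678 to 133283847 and has 2 exons.

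A further 11 genes of bile acid synthesis, from side routes and the peroxisomal shortening of the side chain, were set beside these. Of the 10 listed in both tables, 1 was past 1.5-fold towards females, 1 towards males and 8 were past in neither direction. The share of all genes past 1.5-fold in either direction was 13.2%. Scp2, whose thiolase product acts in side-chain shortening, was also the highest of the list per kb in males. Its mean normalized counts were 77044 in males and 31530 in females, 2.54-fold higher in males. These counts are of the whole gene, and transcripts of the thiolase were not counted alone. Cyp39a1, a hydroxylase of oxysterols, had 821 in males and 1501 in females, 1.76-fold higher in females. The lowest was Ch25h, an oxysterol-forming hydroxylase, with a mean of 1.76 in males and no entry in the female table.

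Of 10 regulators of the pathway, 9 were listed in both tables and 0 of the 9 were past 1.5-fold, beside 13.2% of all genes. Their median log2 ratio was -0.08. The highest per kb in males was Hnf4a, a nuclear receptor of hepatocyte identity, with mean normalized counts of 23196 in males and 19883 in females. Nr1h4, which encodes FXR, had 5171 and 4465. Fgf15, a hormone of the ileum that restrains synthesis in the liver, was listed at 0 in the male table and had no entry in the female table.

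Markers of hepatocytes were abundant in both tables, and 0 of 10 were past 1.5-fold between the sexes, beside 13.2% of all genes. The median log2 ratio of these 10 was -0.08. Among markers of other liver cells the median log2 ratio ran from -0.04 for Kupffer cells to 0.52 for cholangiocytes. Of 6 stellate cell markers 6 were above 0 and 0 past 1.5-fold, with summed means of 9822 in males and 12804 in females. Of 6 cholangiocyte markers 5 were above 0 and Sox9 was at -0.28, with summed means of 1075 in males and 1207 in females. Most of each sum was Spp1, at 737 and 850. Krt19 and Cftr were past 1.5-fold, but at low means of 19.7 and 38.1 for Krt19 and 12.3 and 19.8 for Cftr. Sinusoidal endothelial markers had 5 of 6 above 0 and summed to 13766 and 15634. Of 6 Kupffer cell markers 2 were above 0, and they summed to 7409 and 7707, with Marco past 1.5-fold towards males. Of 6 markers of ileal enterocytes 4 were listed in both tables, and Apoa4 was past 1.5-fold towards females. Their means in males and females were 1347 and 2492 for Apoa4, 857 and 629 for Slc10a2, and 848 and 946 for Fabp2. Vil1 was low, at 10.6 and 11.2. Fabp6 was listed at 0 and Slc51a at 0.501 in males, and neither had an entry in the female table. The part of these markers in the differences of Cyp7b1, Cyp8b1 and Cyp7a1 was not tested. In bulk liver, fewer cells of a type and less RNA per cell cannot be told apart.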

How the data were processed

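RNA-seq was made from 12 liver samples, 3 WT and 3 Midn-T of each sex, and 8 ATAC-seq samples were not used here. The authors depleted ribosomal RNA and mapped the reads with STAR 2.7 on GRCm39. HTSeq, set by the authors for a reverse-stranded library, then counted reads with a unique position for each Ensembl gene, and DESeq2 was run by the authors for males and females apart. The deposited column used here is a signal, namely size-factor normalized counts averaged by the authors across 6 livers. The other columns hold the authors' fold changes, standard errors, test statistics and p-values of Midn-T against WT, and the deposited ATAC-seq lists hold peaks chosen by the same contrast. None of these was used. Depth per sample is unknown, so no interval was given.

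Gene models came from GENCODE M39, which differs from the authors' Ensembl release, and held 18045 of the 18149 genes listed in both tables. Levels were divided by merged exon length, and ratios were centred on the median log2 ratio over genes with an average mean of at least 10. A gene was called past 1.5-fold, with no test. The scaling was tested on simulated means whose changes were drawn evenly in both directions, unlike the 4.71% and 8.51% found here. Words of 31 bases were compared on the sense strand. Analyses used Python 3.11.15, numpy 2.4.6, pandas 2.3.3 and matplotlib 3.10.9. Alternatives were other scales, filters, folds, a pseudocount and other gene lengths. All 10 genes are named, and from the further lists those past 1.5-fold and the highest and lowest per kb in males, together with marker genes used in the checks. Nr1h4, Gm49388 and Setd1a are named outside this rule, chosen after their values were seen. The promoter of Cyp7a1 is not reported here. Protein identity to paralogs was planned and not computed. The genes, lists and motifs were chosen with earlier results of these data known.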

Additional observations from a re-analysis of the deposited data

How the results depend on the processing

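The count of 3 genes past 1.5-fold, all higher in males, was the same with means as deposited, with scaling by the sum of means or by a trimmed mean of the log ratios, without a filter, with a minimum average mean of 100 and with a pseudocount of 1. At 2-fold it was 2, Cyp7a1 being the gene lost, against 4.49% of all genes. Each scale or filter took 1 shared amount off all 10 ratios, from 0.0000 to 0.0739 in log2. Little change was therefore possible for Cyp7b1, Cyp8b1 and Cyp7a1, and the 2-fold setting left the ratios as they were. Over these 7 alternatives the log2 ratio ranged from -3.17 to -3.09 for Cyp7b1, from -0.94 to -0.86 for Cyp7a1 and from 0.51 to 0.58 for Akr1d1, and none of the 10 ratios changed sign. With means as deposited Cyp8b1 was 1.999-fold higher in males, and Akr1d1 was 1.498-fold higher in females, just under 1.5-fold. The 10 genes kept their order per kb in each sex when the longest transcript set the length. The top 5% held 7 of them in each sex with the longest transcript or among protein-coding genes alone, and 8 in males and 6 in females without division by length.

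No paired analysis was possible because the columns hold 1 mean for each sex and carry no replicate number. For the same reason no mouse was left out in turn, and the spread between mice behind each mean is not known here. Each sex has a table of its own, so sex and the separate normalization cannot be told apart beyond the scales tried.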
